A study of Mus musculus with 27 samples.

Results

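Mitosis and cytokinesis were followed in regenerating mouse liver through 51 genes, chosen by name from the 54532 genes of the deposited expression table. All 51 were found there and all 51 passed the filter for testing, which asked for 4 or more libraries with an FPKM of 1 or more. FPKM is the authors' expression level per length of the gene, scaled between libraries. A comparison of levels between genes depends on the gene length that the authors used. Of the 51, 39 were under 1 FPKM in every sham library and entered the test through livers taken after resection, so that the filter itself favoured a difference from sham in these genes. The genes were grouped by role: 6 of entry into mitosis, 4 mitotic kinases, 4 of the spindle checkpoint, 8 of the centromere and kinetochore, 7 of the spindle, 7 of chromosome structure, 4 of the chromosomal passenger complex, 5 of anaphase and mitotic exit, and 6 of cytokinesis.

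RNA was sequenced in 27 liver libraries of wild-type C57/BL6J mice. A sham operation served as the baseline (sham, n = 5), and other mice lost 70% of the liver by partial hepatectomy and were sampled 24 h (PHx24, n = 7) or 48 h later (PHx48, n = 7). A further 4 libraries per time came from mice given etomoxir, an inhibitor of carnitine palmitoyltransferase 1, which starts the entry of long-chain fatty acids into mitochondria. The dose was 12.5 mg/kg, given by intraperitoneal injection 4 h ahead of surgery. Mice of the PHx24_ETO group (n = 4) had this dose alone, and those of the PHx48_ETO group (n = 4) had a further dose 24 h after surgery. Whether the other groups received a vehicle, and whether every library came from its own animal, is not given in the sources used here, so the p-values rest on a spread among libraries that may be technical in part.

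Total counts ran from 14903757 to 18446372 per library. The summed FPKM of 8 hepatocyte markers lay between 23184 and 64736 in all 27 libraries. Skeletal muscle markers summed to 3907 FPKM in sham 1, 1516 in PHx24 1 and 479.6 in PHx48 3, and exocrine pancreas markers to 761 in sham 2. These 4 libraries stood apart by transcripts of other tissues, and the counts below were also made without them. PHx48 3 also held 116.8 FPKM of pancreas markers. PHx48_ETO 4, with 69.6 FPKM of muscle markers, was kept in those fits. Since whole liver was measured, fewer dividing cells and less RNA per dividing cell cannot be told apart.

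Most hepatocytes of an adult liver are at rest, and after resection they replicate their DNA and then divide, so that transcripts of mitosis rise after those of DNA replication. Cyclin B with CDK1 drives a cell into mitosis. Condensin compacts the chromosomes, kinetochores attach them to the spindle, and the spindle checkpoint holds back the anaphase-promoting complex until all are attached. CDC20 then activates that complex, securin and cyclin B are destroyed, the sister chromatids part and the actomyosin ring divides the cell, although hepatocytes often skip this last step and become binucleate. Many of these genes are held down in resting cells by the DREAM complex and turned on late in the cycle by MuvB with B-MYB and FOXM1, through a promoter element called CHR, while NF-Y binds CCAAT boxes nearby.

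Promoters of the members were searched for the CHR and CCAAT elements. Whether a motif went with the size of a member's change was not tested. Windows of 300 bases, from 250 before to 50 after the start, were taken from RefSeq (GRCm38.p6) for the 42 members found in that table. The CHR core was searched as TTTGAA and the NF-Y element as CCAAT, each on both strands. TTTGAA was present in 31 of 42 windows, 73.8% (exact binomial 95% interval 58 to 86.1%), against 18.1% of 27025 promoters of the same length. CCAAT was also in 31 of 42 (73.8%), against 37.9% of all promoters. Both were in 28 of 42 (66.7%, interval 50.5 to 80.4%), against 7.12%. In the last 100 bases of the windows alone, TTTGAA was in 61.9%, CCAAT in 52.4% and both in 40.5% of the member promoters, against 4.92%, 13.9% and 0.807% of all. Shown are the windows of the 2 members with the largest difference between PHx48 and sham (Ccnb1 and Cdkn3) and of the 2 in the promoter table with the smallest (Spc25 and Pttg1), on the strand of the gene, with TTTGAA and CCAAT of either orientation in capitals.
Ccnb1: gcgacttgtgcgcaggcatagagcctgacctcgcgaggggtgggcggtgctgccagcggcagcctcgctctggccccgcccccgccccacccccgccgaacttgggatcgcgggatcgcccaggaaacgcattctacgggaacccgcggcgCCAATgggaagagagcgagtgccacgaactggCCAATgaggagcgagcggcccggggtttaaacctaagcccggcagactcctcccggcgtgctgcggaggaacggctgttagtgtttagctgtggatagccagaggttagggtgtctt
Cdkn3: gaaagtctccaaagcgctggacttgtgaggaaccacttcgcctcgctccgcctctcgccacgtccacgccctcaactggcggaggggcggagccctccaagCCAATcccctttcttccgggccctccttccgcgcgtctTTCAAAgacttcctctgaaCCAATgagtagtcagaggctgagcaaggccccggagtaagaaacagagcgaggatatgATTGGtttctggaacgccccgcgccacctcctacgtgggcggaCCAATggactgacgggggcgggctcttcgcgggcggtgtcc
Spc25: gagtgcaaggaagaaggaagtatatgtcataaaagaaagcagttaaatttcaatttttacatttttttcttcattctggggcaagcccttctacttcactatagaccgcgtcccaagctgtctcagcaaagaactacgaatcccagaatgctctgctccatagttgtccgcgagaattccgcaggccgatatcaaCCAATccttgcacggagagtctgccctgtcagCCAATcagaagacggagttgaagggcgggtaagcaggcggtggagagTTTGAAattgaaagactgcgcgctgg
Pttg1: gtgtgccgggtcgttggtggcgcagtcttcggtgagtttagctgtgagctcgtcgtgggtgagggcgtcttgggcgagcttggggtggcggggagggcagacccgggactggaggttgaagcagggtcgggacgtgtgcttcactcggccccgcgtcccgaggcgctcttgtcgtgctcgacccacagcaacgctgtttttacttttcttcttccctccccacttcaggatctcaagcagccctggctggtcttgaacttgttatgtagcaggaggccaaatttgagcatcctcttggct
The gene Ccnb1 lies at chr13:100778650-100786570, Cdkn3 at chr14:46760541-46771669, Spc25 at chr2:69193895-69206194 and Pttg1 at chr11:43420250-43426251 (GRCm38). The Ccnb1 window is chr13:100786437-100786736 on the minus strand, that of Cdkn3 chr14:46760291-46760590 on the plus strand, that of Spc25 chr2:69206164-69206463 on the minus strand and that of Pttg1 chr11:43425932-43426231 on the minus strand. Ccnb1 held 2 CCAAT boxes and no TTTGAA. Cdkn3 held 4 CCAAT boxes and 1 TTTGAA, and Spc25 held 2 and 1. The Pttg1 window held neither motif, but it lay wholly within the gene coordinates given above. Bases before that gene start were therefore not searched for Pttg1. The window was 1 of 8 with neither motif, together with Melk, Mad2l1, Nuf2, Knstrn, Nusap1, Ncaph and Birc5, named after the search. A match of letters is a description of the window and does not show that a factor binds there.

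Nearly all of the mitosis genes were higher after resection. The mean log2(FPKM + 1) over the 51 genes was 0.596 ± 0.122 in sham (SD, n = 5), 1.91 ± 0.507 in PHx24 (n = 7) and 3.33 ± 0.298 in PHx48 (n = 7). With etomoxir it was 0.924 ± 0.692 at 24 h (n = 4) and 3.07 ± 0.223 at 48 h (n = 4). The number of members at 1 FPKM or more in a library was 6 to 12 in sham, 22 to 50 in PHx24, 6 to 43 in PHx24_ETO, and 50 or 51 in every library of either 48 h group.

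Libraries within a group were far from alike at 24 h. Among the PHx24 libraries, PHx24 2 was the lowest for 49 of the 51 members and PHx24 6 the highest for 49. Among the PHx24_ETO libraries, PHx24_ETO 1 was the highest for 49 and PHx24_ETO 2 the lowest for 47, and their means were 1.93 and 0.366, with 0.624 and 0.774 in PHx24_ETO 3 and 4. The median coefficient of variation of the members was 43.1% in sham, 48.3% in PHx24, 129.9% in PHx24_ETO, 26.2% in PHx48 and 22.7% in PHx48_ETO. In sham, sham 4 was the highest for 36 of 51.

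**Figure D1:**
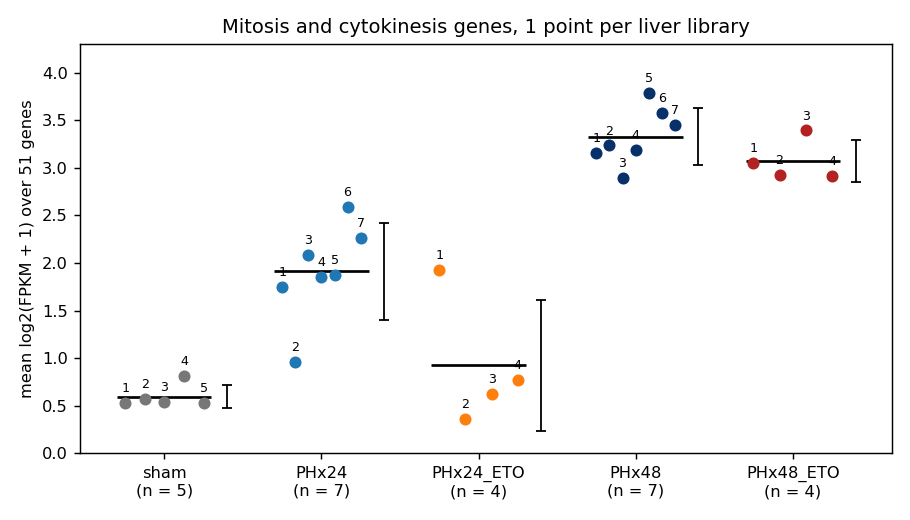
Mean log2(FPKM + 1) of the 51 mitosis and cytokinesis genes in each library, grouped by treatment, with the replicate number beside each point, the group mean as a line and the SD as a bar. PHx24_ETO 1 (1.93) lies among the PHx24 libraries, while the other 3 PHx24_ETO libraries (0.366 to 0.774) lie below all of them.

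**Figure D2:**
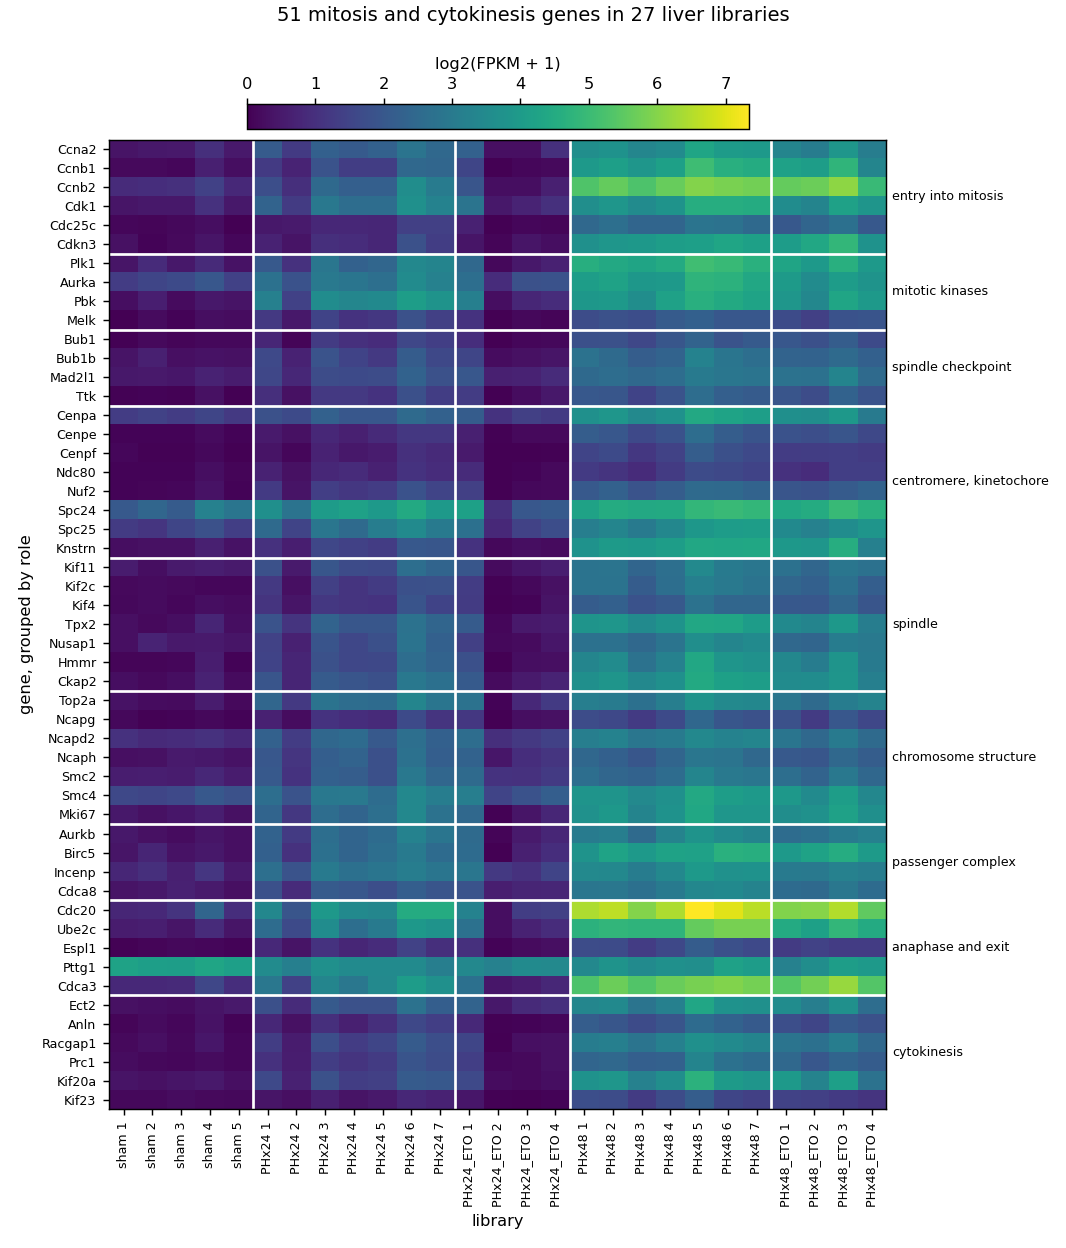
Level of each of the 51 genes (rows, ordered by role) in each of the 27 libraries (columns), as log2(FPKM + 1) from dark to bright. Nearly all rows brighten from sham to PHx24 to PHx48, PHx24_ETO 1 resembles the PHx24 columns, and Pttg1 is bright throughout.

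At 24 h after resection 50 of the 51 members were higher than in sham and 1 was lower (edgeR quasi-likelihood test on counts, Benjamini-Hochberg adjusted p under 0.05). Over all 12376 genes tested, 19.1% were called higher and 15.8% lower. The median log2 fold change of the members was 3.24, against 0.01 over all genes tested. At 48 h again 50 members were higher than in sham and 1 lower, against 19.5% and 17% of all genes, with a median log2 fold change of 5.11, against 0.01 over all genes. The PHx24 and sham libraries did not overlap for 37 members, against 17.7% of all genes tested, nor the PHx48 and sham libraries for 50, against 19.9%. Both comparisons share the sham libraries.

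The 6 genes of entry into mitosis all rose at both times. Cyclin B1 (Ccnb1), which with CDK1 starts mitosis, was at 0.140, 0.131, 0.0978, 0.549 and 0.217 FPKM in the 5 sham libraries, had a lowest, median and highest value of 0.645, 1.53 and 4.62 FPKM in the 7 PHx24 libraries and of 13.4, 17.0 and 32.5 in the 7 PHx48 libraries. The 3 groups did not overlap, and sham 4 was the highest of its group. Its log2 fold change against sham was 3.44 ± 0.72 (SE, adjusted p = 0.000599) at 24 h and 6.50 ± 0.77 (SE, adjusted p = 4.91e-07) at 48 h, the largest of the members at 48 h. Cyclin B2 (Ccnb2), the member of this role with the highest mean, was at 0.888, 0.946, 1.03, 1.66 and 0.797 FPKM in sham, 0.966, 3.71 and 11.1 (lowest, median, highest) in PHx24 and 37.8, 48.6 and 62.1 in PHx48. PHx24 2 lay below sham 3 and sham 4, so sham and PHx24 overlapped, while every PHx48 library was above every library of both. The log2 fold changes of Ccnb2 were 2.20 ± 0.51 (SE, adjusted p = 0.00151) and 5.55 ± 0.55 (SE, adjusted p = 4.07e-08). Cdk1, the kinase that cyclin B activates, was at 0.335, 0.377, 0.390, 1.08 and 0.386 FPKM in sham, 1.43, 5.19 and 11.7 in PHx24 and 10.6, 13.4 and 22.8 in PHx48. All PHx24 libraries were above sham, but PHx24 6 reached into the PHx48 range. The log2 fold changes of Cdk1 were 3.60 ± 0.59 (SE, adjusted p = 3.66e-05) and 5.03 ± 0.62 (SE, adjusted p = 7.58e-07). Cdkn3, a phosphatase that removes an activating phosphate from CDKs, had the lowest adjusted p of all members at 48 h. It was at 0.249, 0.0582, 0.145, 0.325 and 0.0965 FPKM in sham, 0.299, 0.926 and 2.50 in PHx24 and 11.8, 15.9 and 19.0 in PHx48, and only PHx24 2 fell within the sham range. Its log2 fold changes were 2.61 ± 0.46 (SE, adjusted p = 8.2e-05) and 6.44 ± 0.46 (SE, adjusted p = 1.67e-10). Cyclin A2 (Ccna2) and Cdc25c, a phosphatase that frees CDK1 from its inhibitory phosphates, rose by 2.94 and 3.24 at 24 h and by 4.75 and 5.70 at 48 h on the log2 scale.

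Mitotic kinases rose in all 4 cases at both times. Plk1, which acts on centrosomes, kinetochores and the cleavage site, was at 0.322, 0.878, 0.375, 0.842 and 0.277 FPKM in sham, 1.05, 4.36 and 9.82 in PHx24 and 18.7, 23.2 and 33.1 in PHx48. The 3 groups did not overlap. Pbk, a kinase of dividing cells, had the largest log2 fold change of the members at 24 h, 4.97 ± 0.69 (SE, adjusted p = 6.08e-06), from a mean of 0.315 ± 0.155 (SD, n = 5) FPKM to 9.78 ± 4.39 (SD, n = 7). Against sham the log2 fold changes at 24 h and 48 h were 1.71 and 3.25 for Aurka, the kinase of spindle poles, and 3.57 and 4.58 for Melk. The spindle checkpoint genes also rose in 4 of 4 cases at both times. Mad2l1, whose protein binds CDC20 until the chromosomes are attached, was at 0.394, 0.403, 0.352, 0.616 and 0.464 FPKM in sham, 0.747, 2.23 and 3.95 in PHx24 and 4.57, 5.17 and 7.15 in PHx48, with no overlap between the 3 groups. The log2 fold changes at 48 h were 3.67 for Mad2l1, 4.05 for Bub1b, 5.0 for Bub1 and 5.47 for Ttk, the last 2 being kinases that recruit the checkpoint proteins to kinetochores.

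Centromere and kinetochore genes rose in 8 of 8 cases at both times, but from different levels. Spc24, a subunit of the NDC80 complex that holds microtubules, was already at 3.17, 4.40, 3.34, 8.36 and 6.22 FPKM in sham and reached 5.89, 14.5 and 21.0 in PHx24 and 17.6, 21.7 and 30.4 in PHx48. PHx24 2 lay within the sham range, PHx24 6 reached into the PHx48 range, and sham 4 was the highest sham library. Its log2 fold changes were 1.52 ± 0.42 (SE, adjusted p = 0.00679) and 2.26 ± 0.44 (SE, adjusted p = 0.000218), and without the 4 libraries that held muscle or pancreas transcripts the former was 1.32 with an adjusted p of 0.0721. Its partners in the complex, Spc25, Nuf2 and Ndc80, had log2 fold changes at 48 h of 2.72, 5.13 and 4.18. In PHx48 the mean FPKM of the 4 subunits was 23.9 for Spc24, 11.3 for Spc25, 3.81 for Nuf2 and 1.55 for Ndc80. These levels depend on the gene lengths in the authors' table, 2573, 3188, 6341 and 6493 bases in that order. Whether the transcripts themselves were at unequal levels was not tested. Cenpa, the histone H3 variant that marks centromeres, rose by 1.07 at 24 h and 3.21 at 48 h on the log2 scale, and Cenpe, a kinetochore motor, by 3.35 and 5.39.

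The spindle genes rose in 7 of 7 cases at both times. Tpx2, which activates Aurora A on the spindle, was at 0.240, 0.147, 0.206, 0.709 and 0.212 FPKM in sham, 1.16, 2.94 and 5.83 in PHx24 and 10.5, 13.4 and 20.3 in PHx48. The 3 groups did not overlap, although sham 4 stood above the other sham libraries. Its log2 fold changes were 3.53 ± 0.57 (SE, adjusted p = 3.66e-05) and 5.66 ± 0.61 (SE, adjusted p = 1.2e-07). Of the motors, Kif11, which pushes the spindle poles apart, rose by 3.96 at 48 h and Kif2c, which takes microtubule ends apart, by 5.53 on the log2 scale. Hmmr, a spindle assembly factor, had the largest change of this role at 48 h, 6.21.

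The chromosome structure genes rose in 7 of 7 cases at both times. Smc4, a core subunit of condensin, was at 2.02, 1.88, 2.08, 3.05 and 2.55 FPKM in sham, 2.66, 6.67 and 9.67 in PHx24 and 9.87, 12.9 and 20.4 in PHx48. PHx24 2 fell below sham 4, and all PHx48 libraries were above all of sham and PHx24. Top2a, the topoisomerase that untangles sister chromatids, was at 0.288, 0.184, 0.160, 0.488 and 0.135 FPKM in sham, 1.33, 5.18 and 9.04 in PHx24 and 5.56, 7.84 and 12.6 in PHx48. Both resected groups lay wholly above sham, and they overlapped each other. Mki67, which coats mitotic chromosomes and is widely used to mark dividing cells, was at 0.388, 0.267, 0.369, 0.529 and 0.258 FPKM in sham, 1.27, 5.15 and 9.70 in PHx24 and 8.96, 13.3 and 19.8 in PHx48, with the same pattern of overlap as Top2a. The log2 fold changes at 24 h were 1.45 ± 0.29 (SE, adjusted p = 0.000402) for Smc4, 4.41 ± 0.66 (SE, adjusted p = 1.25e-05) for Top2a and 3.83 ± 0.65 (SE, adjusted p = 5.72e-05) for Mki67.

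The chromosomal passenger complex, built of Aurora B, INCENP, survivin and borealin, corrects faulty attachments and later acts at the cleavage site, and its 4 genes rose at both times. Birc5 (survivin) was at 0.330, 0.710, 0.283, 0.385 and 0.224 FPKM in sham, 1.06, 4.94 and 6.97 in PHx24 and 12.7, 17.8 and 24.2 in PHx48. Aurkb was at 0.381, 0.258, 0.187, 0.340 and 0.233 FPKM in sham, 1.37, 4.97 and 8.63 in PHx24 and 4.79, 8.74 and 12.7 in PHx48. For both genes all resected libraries without etomoxir were above all sham libraries, while PHx24 and PHx48 overlapped for Aurkb and not for Birc5. Incenp had the lowest adjusted p of all members at 24 h, and its log2 fold change was 2.89 ± 0.37 (SE, adjusted p = 1.93e-06), and its mean rose from 0.790 ± 0.313 (SD, n = 5) to 5.80 ± 1.57 (SD, n = 7) FPKM. Cdca8 (borealin) rose by 2.75 at 24 h and 4.29 at 48 h on the log2 scale.

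Anaphase and exit held both the member with the highest mean FPKM and the exception. Cdc20, which activates the anaphase-promoting complex, was at 0.728, 0.812, 1.14, 4.25 and 0.939 FPKM in sham, 2.85, 10.2 and 22.0 in PHx24 and 61.3, 93.9 and 161 in PHx48. PHx24 2 lay below sham 4, which was far above the other 4 sham libraries, and all PHx48 libraries were above all of sham and PHx24. Its log2 fold changes were 3.08 ± 0.60 (SE, adjusted p = 0.000294) and 6.05 ± 0.68 (SE, adjusted p = 2.35e-07). Pttg1, or securin, which holds the protease separase inactive until anaphase, was the only member that fell. It was at 17.8, 16.2, 15.8, 18.8 and 16.6 FPKM in sham, the highest level of any member there, 7.75, 10.4 and 11.8 in PHx24 and 9.81, 11.9 and 17.5 in PHx48. All PHx24 libraries were below all sham libraries, and PHx48 6 was within the sham range. Its log2 fold change was -0.77 ± 0.14 (SE, adjusted p = 0.000145) at 24 h and -0.41 ± 0.14 (SE, adjusted p = 0.0245) at 48 h. The call at 48 h was lost without PHx48 1 (-0.36, adjusted p = 0.0544), without the 4 libraries that held muscle or pancreas transcripts (-0.37, adjusted p = 0.122), with no filter (-0.40, adjusted p = 0.0671) and on the TPM scale (-0.07, adjusted p = 0.624 with limma). Espl1, which encodes separase, rose by 3.73 at 24 h and 5.0 at 48 h. Ube2c, the E2 enzyme of the complex, and Cdca3 rose by 6.24 and 5.57 at 48 h. Exons of Ube2c share 22.8% of their bases with the muscle gene Tnnc2, whose mean over the 27 libraries was 0.0195 FPKM. Overlapping genes can share reads, so this low mean does not show that reads of Tnnc2 were absent. Whether they entered the Ube2c counts, above all in the libraries that held muscle transcripts, was not tested.

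The cytokinesis genes rose in 6 of 6 cases at both times. Kif20a, a motor of the central spindle, was at 0.311, 0.254, 0.326, 0.427 and 0.241 FPKM in sham, 0.592, 2.04 and 3.28 in PHx24 and 8.40, 13.2 and 25.5 in PHx48. Its 3 groups did not overlap, but 29.3% of its exon bases are shared with Cdc23, a subunit of the anaphase-promoting complex, and without strand their reads cannot be told apart. Anln (anillin), a scaffold of the contractile ring, was at 0.0782, 0.167, 0.0834, 0.281 and 0.0589 FPKM in sham, 0.261, 0.970 and 2.04 in PHx24 and 2.20, 3.24 and 4.97 in PHx48. PHx24 2 lay just below sham 4 for Anln, and PHx48 was above all of sham and PHx24. The log2 fold changes of Anln were 2.96 ± 0.59 (SE, adjusted p = 0.000364) and 4.68 ± 0.62 (SE, adjusted p = 2.12e-06). At 48 h, Ect2, which switches on RhoA at the cleavage site, and Racgap1 and Kif23, which together form centralspindlin, rose by 5.34, 5.57 and 4.03, and Prc1, which bundles the midzone microtubules, by 5.34 on the log2 scale.

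**Figure D3:**
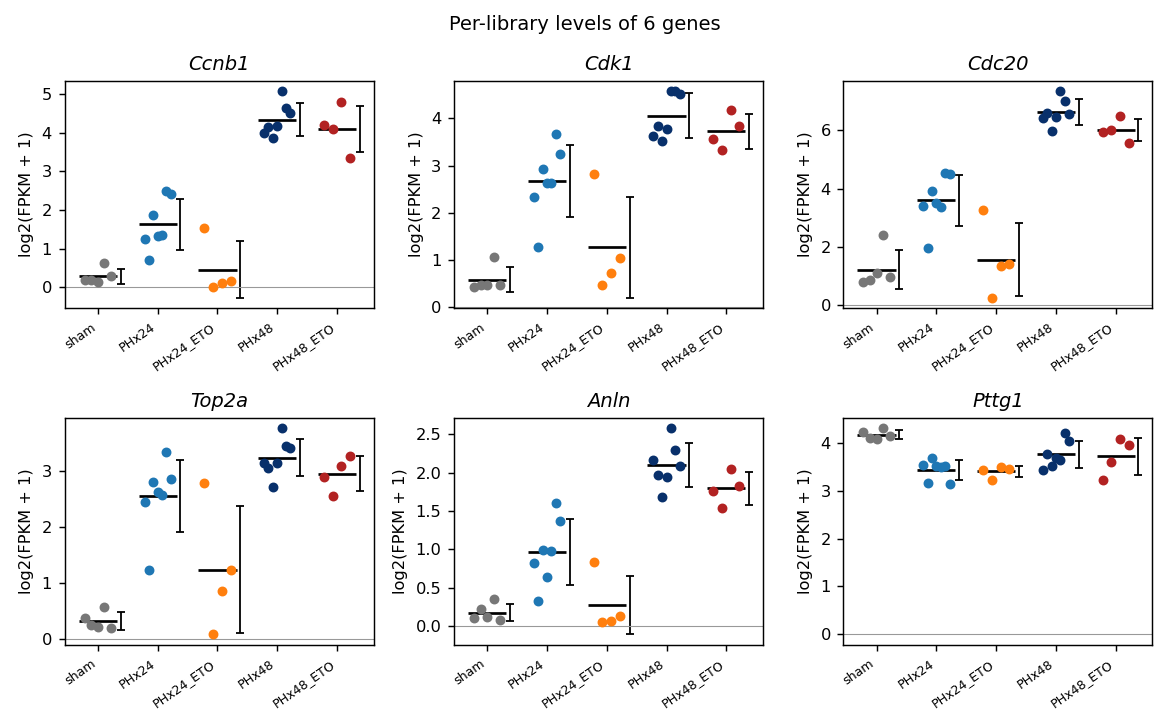
Levels of 6 members as log2(FPKM + 1) in every library of the 5 groups, with the group mean as a line and the SD as a bar beside it. Ccnb1 and Cdc20 climb in steps from sham to PHx24 to PHx48, Top2a overlaps between PHx24 and PHx48, and Pttg1 is highest in sham.

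From 24 h to 48 h the members rose by different amounts. Some, such as Cdkn3 (1 FPKM or more in 13 libraries), entered the test only through the 48 h libraries. For these the filter itself favoured a rise from 24 h to 48 h. Of the 51, 35 were higher in PHx48 than in PHx24 and 0 were lower, against 6.19% and 5.41% of all genes tested (46 were higher and 0 lower at an unadjusted p under 0.05). DESeq2 and limma, run as alternatives, also called 0 lower. The median log2 fold change was 1.54, and the 2 groups did not overlap for 31 members, against 4.92% of all genes tested. By role, 6 of 6 genes of entry and 6 of 6 of cytokinesis were called higher, 6 of 7 of the spindle, 4 of 5 of anaphase and exit, 3 of 4 of the passenger complex, 4 of 8 of the centromere and kinetochore, 2 of 4 of the kinases and of the checkpoint, and 2 of 7 of chromosome structure.

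The members were also ordered by the mean FPKM of PHx24 as a share of that of PHx48, a ratio that holds the level in sham too. It ran from 7.03% for Cdkn3 to 77.7% for Pttg1, with a median of 34.4%. The 8 members under 20% were Cdkn3 (7.03%), Ccnb2 (9.77%), Knstrn (10.9%), Ccnb1 (11.9%), Cdc20 (12.7%), Kif20a (14.7%), Cdca3 (17.5%) and Cdc25c (18.1%). They include 4 of the 6 entry genes, the activator of the anaphase-promoting complex, a kinetochore protein and a motor of the midzone. The 9 over 50% were Incenp (53.5%), Spc25 (54.6%), Aurkb (56.8%), Pbk (57.5%), Spc24 (59.7%), Top2a (61.3%), Smc2 (61.6%), Ncaph (72.5%) and Pttg1 (77.7%). Among these are 3 of the 7 chromosome structure genes and 2 of the 4 subunits of the NDC80 complex. Pttg1 was highest in sham and lower at 24 h, so its share is not a rise, and Spc24 was at 3.17 to 8.36 FPKM in sham. Both lists were drawn up after the levels were seen.

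Cdkn3 had the largest log2 fold change from 24 h to 48 h, 3.83 ± 0.32 (SE, adjusted p = 1.57e-08), and the lowest adjusted p. Ccnb2, Ccnb1 and Cdc20 followed a similar course, with 3.36, 3.07 and 2.97. Plk1 changed by 2.19 ± 0.45 (SE, adjusted p = 0.00198) and Anln by 1.71 ± 0.45 (SE, adjusted p = 0.0126). Cdk1, the kinase partner of these cyclins, changed by 1.43 ± 0.44 (SE, adjusted p = 0.0345). Its call was lost with no filter, without the 4 libraries that held muscle or pancreas transcripts, and when any of PHx24 1 to 5 or PHx48 5 to 7 was left out (adjusted p = 0.055 to 0.0682 over these fits). Incenp of the passenger complex, called higher in the main fit, lost its call with no filter and without those 4 libraries. It also did so without any 1 of PHx24 1, 2, 4, 5 or 7 or PHx48 1, 2 or 4 to 7 (edgeR adjusted p = 0.0507 to 0.0814 over these fits). Values for Top2a (0.70 ± 0.47, adjusted p = 0.369), Aurkb (0.81 ± 0.44, adjusted p = 0.254), Ncaph (0.46 ± 0.33, adjusted p = 0.411) and Mki67 (1.40 ± 0.49, adjusted p = 0.0627) did not pass the threshold, and neither did Pttg1, the smallest difference, with 0.36 ± 0.13 (SE, adjusted p = 0.0739). Mki67 did pass with limma on all 3 scales tried, when only the 2 groups were fitted (adjusted p = 0.00403) and without PHx24 6 (adjusted p = 0.0389), and Pttg1 with limma on log2(TPM + 1) (0.48, adjusted p = 0.00282).

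**Figure D4:**
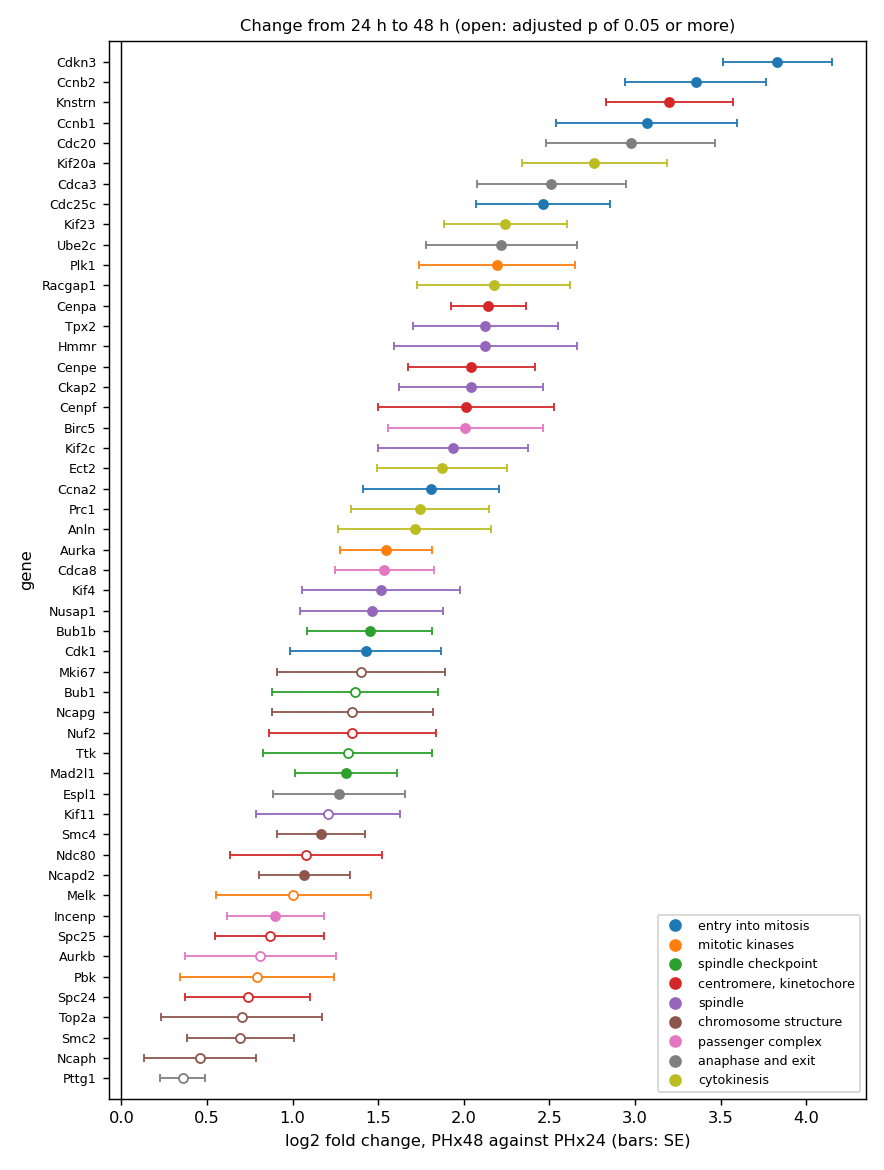
Log2 fold change of each of the 51 members in PHx48 against PHx24 with its SE, ordered by size, coloured by role, filled where the adjusted p was under 0.05. The cytokinesis genes and the entry genes other than Cdk1 (1.43) lie above the median of 1.54, up to 3.83 for Cdkn3, and the chromosome structure genes below it, down to 0.46 for Ncaph.

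At 24 h the livers given etomoxir were lower in all 51 members by the estimate, with a median log2 fold change of -1.62, against 0.01 over all genes, but few members passed the test. Of the 51, 10 were called lower and 0 higher, against 1.33% and 1.58% of all genes tested (48 were lower and 0 higher at an unadjusted p under 0.05). DESeq2 called 25 lower and limma on log2(FPKM + 1) 28, and neither called any higher. The groups overlapped for all 51 members, while they did not overlap for 3.24% of all genes tested. PHx24_ETO 1 was within the PHx24 range for all 51 members and above all sham libraries for 49. PHx24_ETO 2 was below every PHx24 library for 50 members and below every sham library for 37. PHx24_ETO 3 was below every PHx24 library for 47 and within the sham range for 26, and PHx24_ETO 4 was below every PHx24 library for 36 and above all sham libraries for 23.

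The 10 members called lower with etomoxir at 24 h, named after their values were seen, were Ccnb2, Cdca3, Nusap1, Cdkn3, Cdc25c, Knstrn, Ube2c, Kif23, Cenpe and Aurka, with log2 fold changes from -2.33 for Ccnb2 to -1.21 for Aurka. Ccnb2 was at 2.81, 0.199, 0.199 and 0.575 FPKM in PHx24_ETO 1 to 4. The first of these lay within the PHx24 range and the other 3 below every PHx24 and every sham library. Its log2 fold change was -2.33 ± 0.56 (SE, adjusted p = 0.0232). Cdkn3, with the lowest adjusted p, was at 0.323, 0.0772, 0.335 and 0.200 FPKM, with PHx24_ETO 1 and 3 just above the lowest PHx24 library. Its log2 fold change was -2.20 ± 0.46 (SE, adjusted p = 0.0117). Ube2c was at 5.64, 0.211, 0.634 and 0.911 FPKM, and the last 3 of these were below every PHx24 library.

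Most of the other genes given here showed the same split of the 4 libraries without passing the threshold. Ccnb1 was at 1.91, 0, 0.0868 and 0.128 FPKM in PHx24_ETO 1 to 4, and its log2 fold change was -2.14 ± 0.69 (SE, adjusted p = 0.0844). Cdk1 was at 6.06, 0.383, 0.655 and 1.04 FPKM (-1.58 ± 0.55, adjusted p = 0.106). Cdc20 was at 8.54, 0.196, 1.54 and 1.63 FPKM (-2.11 ± 0.61, adjusted p = 0.0585). For each of these 3 genes only PHx24_ETO 1 lay within the PHx24 range. Without that library the log2 fold change was -5.07 for Ccnb1 (adjusted p = 0.00014), -3.16 for Cdk1 (adjusted p = 0.00032) and -3.55 for Cdc20 (adjusted p = 0.000788). Plk1 was at 4.61, 0.111, 0.388 and 0.585, Tpx2 at 3.29, 0.104, 0.417 and 0.477 and Kif20a at 2.06, 0.177, 0.129 and 0.196 FPKM. Birc5 was at 4.97, 0.0179, 0.574 and 0.935, Aurkb at 4.78, 0.0621, 0.435 and 0.712 and Spc24 at 17.1, 1.04, 2.96 and 3.23 FPKM. In these 6 genes too the last 3 libraries were below every PHx24 library. Mki67 was at 4.54, 0.0364, 0.346 and 0.726, Anln at 0.793, 0.0404, 0.0471 and 0.0971 and Top2a at 5.84, 0.0542, 0.799 and 1.35 FPKM. Of these values outside PHx24_ETO 1, only that of Top2a in PHx24_ETO 4 came just above the lowest PHx24 library. Smc4 was at 7.84, 1.86, 2.59 and 3.56 and Mad2l1 at 3.01, 0.575, 0.618 and 0.887 FPKM. PHx24_ETO 4 was within the PHx24 range for both. Pttg1 was at 9.80, 8.36, 10.3 and 9.95 FPKM, all within the PHx24 range, and had the smallest difference, -0.06 ± 0.15 (SE, adjusted p = 0.861).

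The count of members called lower at 24 h rested on single libraries. It was 50 without PHx24_ETO 1 (all but Pttg1, against 5.52% of all genes called lower and 4.17% higher in that fit), 0 without PHx24_ETO 2, 1 without PHx24_ETO 3 or 4, 28 without PHx24 2, 4 to 6 without PHx24 3, 4, 6 or 7, and 0 when only the 2 groups compared were fitted. Beside these differences, sums of markers of other cells were mostly lower in PHx24_ETO than in PHx24, some with overlap. The summed FPKM of sinusoidal endothelial markers (6 of 6 listed in the table) was 13.2 to 22.1 in PHx24_ETO and 20.3 to 26.2 in PHx24, and that of 7 Kupffer cell markers was 37.9 to 81.0 in PHx24_ETO and 81.7 to 152 in PHx24, that of 5 B cell markers 0.274 to 0.649 and 0.608 to 1.34, that of 7 T and NK cell markers 0.153 to 0.926 and 0.560 to 0.930, and that of 8 of 9 erythroid markers 92.4 to 177 and 202 to 453. PHx24_ETO 1 had the highest Kupffer, B cell and T and NK cell sums of its group, and PHx24 2 had the highest neutrophil sum, 80.2 FPKM, of its group. The hepatocyte sum was 26325 to 33424 in PHx24_ETO and 23184 to 31398 in PHx24. The part of these cells in the result was not tested.

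At 48 h no member was called with etomoxir. Of the 51 members, 0 were called higher and 0 lower in PHx48_ETO against PHx48, by edgeR, DESeq2 and limma, and 0 passed an unadjusted p under 0.05 in edgeR. Over all genes tested 0.129% were called higher and 0.0808% lower. The median log2 fold change was -0.33, against -0.01 over all genes, and 48 of 51 estimates were below 0. They ran from -0.80 ± 0.51 (SE, adjusted p = 0.745) for Ube2c to 0.30 ± 0.32 (SE, adjusted p = 0.874) for Cdkn3, and Ncapd2, with the lowest adjusted p, had -0.52 ± 0.31 (SE, adjusted p = 0.719). A p above the threshold does not show that the groups were alike.

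The values in PHx48_ETO 1 to 4 follow in that order. Ccnb1 was at 17.2, 15.9, 26.8 and 9.10 FPKM, Ccnb2 at 47.6, 50.3, 67.4 and 30.1 and Cdk1 at 10.8, 9.02, 17.2 and 13.2. Plk1 was at 18.6, 14.8, 23.6 and 14.3, Mad2l1 at 5.85, 5.73, 8.94 and 4.75 and Spc24 at 20.04, 21.7, 30.0 and 24.0 FPKM. All 6 overlapped with PHx48. Plk1 in PHx48_ETO 1, 2 and 4, Ccnb1 and Ccnb2 in PHx48_ETO 4 and Cdk1 in PHx48_ETO 2 were below every PHx48 library. Ccnb2 and Mad2l1 in PHx48_ETO 3 were above every PHx48 library. PHx48_ETO 3 was the highest of its group for each of the 6 genes. Tpx2 was at 10.1, 8.95, 13.9 and 7.64, Smc4 at 13.9, 10.5, 15.8 and 9.43 and Mki67 at 11.1, 12.1, 17.4 and 11.5 FPKM. Birc5 was at 14.3, 17.6, 22.3 and 14.9, Aurkb at 5.09, 5.57, 7.18 and 8.07 and Cdc20 at 61.1, 62.9, 89.3 and 46.1 FPKM. PHx48_ETO 3 was again the highest, except for Aurkb, where PHx48_ETO 4 was. Tpx2 in PHx48_ETO 1, 2 and 4, Cdc20 in PHx48_ETO 1 and 4 and Smc4 in PHx48_ETO 4 were below every PHx48 library. Kif20a was at 14.4, 8.76, 16.5 and 5.85, Anln at 2.39, 1.90, 3.15 and 2.56 and Pttg1 at 8.38, 11.2, 16.0 and 14.5 FPKM. PHx48_ETO 4 was below every PHx48 library for Kif20a, PHx48_ETO 2 for Anln and PHx48_ETO 1 for Pttg1, and the other values of these 3 genes lay within the PHx48 range.

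Whether the effect of etomoxir differed between the times was tested directly, as the log2 fold change with etomoxir at 48 h minus that at 24 h. It was above 0 for all 51 members, with a median of 1.26 against -0.01 over all genes, and 0 passed the test in either direction, against 0.0162% of all genes called higher and 0% lower. At an unadjusted p under 0.05, 15 were higher and 0 lower, and DESeq2 called 1 higher. Cdkn3 had the largest value and the lowest adjusted p, 2.49 ± 0.56 (SE, adjusted p = 0.206), and Pttg1 the smallest value, 0.03 ± 0.22 (SE, adjusted p = 0.975). Without PHx24_ETO 1 the test called 40 members higher, against 1.43% of all genes in that fit.

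**Figure D5:**
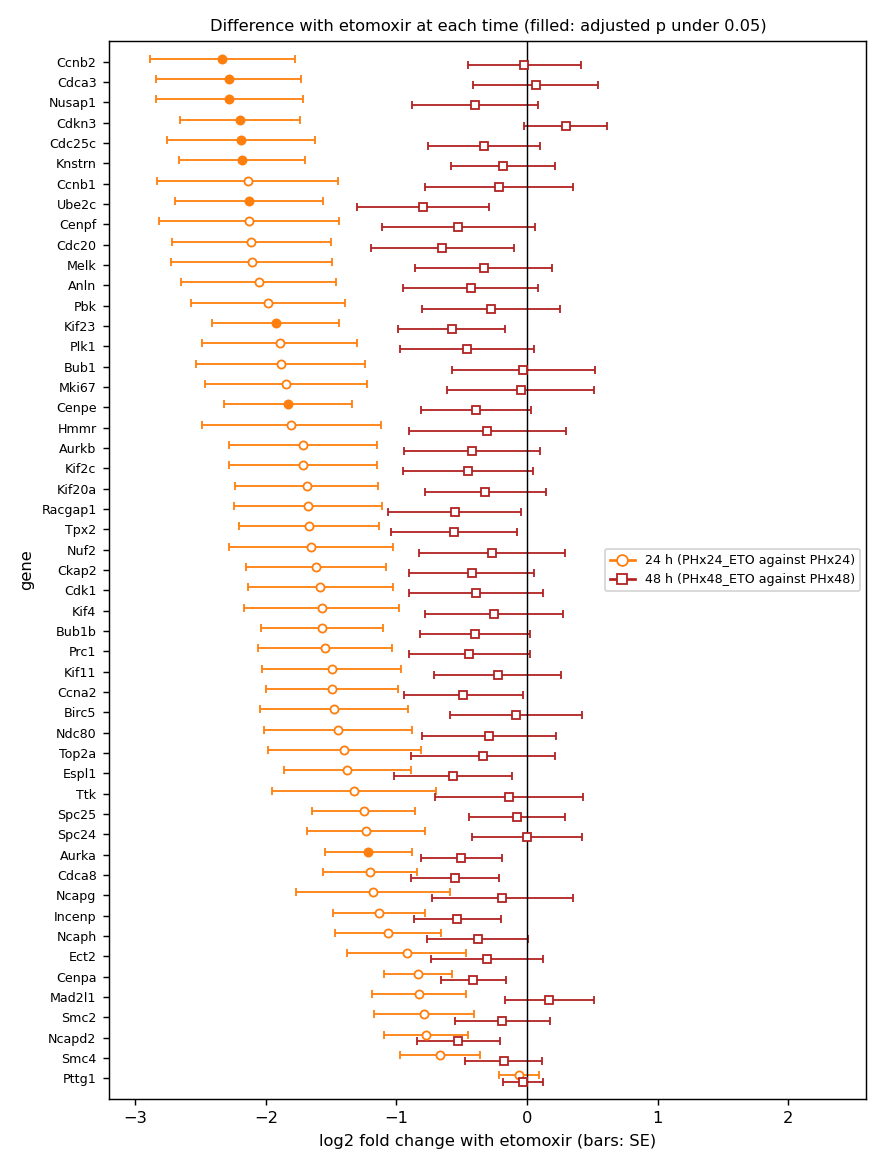
Log2 fold change with etomoxir for each of the 51 members at 24 h (circles) and at 48 h (squares), with SE, filled where the adjusted p was under 0.05. All 51 circles lie below 0, 10 of them filled, and the squares lie nearer to 0, between -0.80 and 0.30, with none filled.

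With etomoxir nearly all members were higher at 48 h than at 24 h. For members that entered the test through the 48 h libraries, such as Cdkn3, the filter favoured this rise too. Of the 51 members, 48 were higher in PHx48_ETO than in PHx24_ETO and 0 lower, against 7.31% and 7.73% of all genes (51 higher and 0 lower at an unadjusted p under 0.05, and 0 lower by DESeq2 and limma). The median log2 fold change was 2.81. Cdkn3 changed most, by 6.33 ± 0.50 (SE, adjusted p = 9.92e-09), from a mean of 0.234 ± 0.121 (SD, n = 4) to 19.0 ± 6.71 (SD, n = 4) FPKM. Top2a (1.77 ± 0.64, adjusted p = 0.0629), Ncaph (1.14 ± 0.44, adjusted p = 0.0841) and Pttg1 (0.39 ± 0.17, adjusted p = 0.134) were the 3 not called. Without PHx24_ETO 1, Top2a (3.25, adjusted p = 0.000456) and Ncaph (2.11, adjusted p = 0.00041) were called too, and limma called both on all 3 scales tried. When only these 2 groups were fitted, 22 members were called higher.

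Against sham, PHx24_ETO had 26 members higher and 1 lower, against 19.7% and 15.6% of all genes, with a median log2 fold change of 1.53. Top2a had the largest difference, 3.01 ± 0.67 (SE, adjusted p = 0.00111), and Ncaph, a condensin subunit, the lowest adjusted p, with 2.34 ± 0.47 (SE, adjusted p = 0.000413). Pttg1 was the member called lower, by -0.83 ± 0.17 (SE, adjusted p = 0.000441). All 4 passenger complex genes and 6 of 7 chromosome structure genes were among the 26, against 2 of 6 entry genes and 1 of 4 kinases. Without PHx24_ETO 1 the counts were 5 higher and 4 lower, against 18.7% and 14.8% of all genes. The 5 were Top2a, Ncaph, Smc2, Ect2 and Incenp, and the 4 were Pttg1, Ccnb2, Kif23 and Spc24, the direction of Spc24 being reversed by that library. The count of higher members was 6 when only the 2 groups were fitted and 14 without the 4 libraries that held muscle or pancreas transcripts. In PHx48_ETO 50 members were higher than in sham and 1 lower, against 16.2% and 13.3% of all genes. Cdkn3 rose most, by 6.74 ± 0.47 (SE, adjusted p = 3.49e-10), and Pttg1 was lower by -0.44 ± 0.16 (SE, adjusted p = 0.0444). That call of Pttg1 was lost when sham 1, 2 or 4 or PHx48_ETO 1 or 2 was left out, and without the 4 libraries named above. PHx24_ETO, PHx24, PHx48 and PHx48_ETO were all set against the same sham libraries.

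Other genes of mitosis, listed by function, were also mostly higher after resection. Of 74 listed, 66 were tested. Of these 66, 64 were higher than sham in PHx24 and 64 in PHx48, against 19.1% and 19.5% of all genes, and 0 were lower, with median log2 fold changes of 2.78 and 3.73. As for the members, the filter favoured a rise in any gene that passed it only through resected livers. How many of the 66 did so was not counted. The largest were Kntc1, a checkpoint gene, at 24 h (4.96 ± 0.71, adjusted p = 7.89e-06) and Depdc1a at 48 h (6.16 ± 0.89, adjusted p = 6.31e-06). Ccnf and Cenpl at 24 h, and Mis12 and Mad2l2 at 48 h, were not called. From 24 h to 48 h 33 of the 66 were higher, against 6.19% of all genes, with Depdc1a the largest (2.43 ± 0.57, adjusted p = 0.00549), and 1, Mad2l2, was lower (-0.58 ± 0.12, adjusted p = 0.00169). With etomoxir at 24 h, Troap, Cdc25b and Cenpw were lower, with log2 fold changes of -2.08, -1.16 and -0.79, against 1.33% of all genes called lower.

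The complexes that CDC20 and separase act on were listed as well. Of the 13 tested core subunits of the anaphase-promoting complex, 4 were higher than sham at 24 h and 10 at 48 h, against 19.1% and 19.5% of all genes, and 0 were lower, with median log2 fold changes of 0.18 and 0.38. Cdc27 changed most at 48 h, by 0.93 ± 0.12 (SE, adjusted p = 1.07e-06), from a mean of 3.83 to 7.19 FPKM. Of the 10 cohesin subunits and loaders tested, 1 was higher and 3 lower at 24 h, and 3 higher and 2 lower at 48 h, shares near those of all genes (19.1% higher and 15.8% lower at 24 h, 19.5% and 17% at 48 h). Rad21, the cohesin subunit that separase cleaves, had the largest rise at 48 h, 1.21 ± 0.15 (SE, adjusted p = 8.7e-07), from a mean of 12.8 to 29.3 FPKM. It also rose from 24 h to 48 h, by 1.02 ± 0.13 (SE, adjusted p = 1.19e-05), while Stag2 was lower than sham at 24 h (-0.68 ± 0.13, adjusted p = 0.000188) and 48 h (-0.55 ± 0.13, adjusted p = 0.00139).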

How the data were processed

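RNA-seq of 27 mouse liver libraries was analysed from a gene table deposited by the authors. Per the submitters' processing notes, the tools were CASAVA 1.8, DESeq2 1.20.0, fastp, featureCounts 1.5.0-p3 and HISAT2 2.0.5, and the build GRCm38/mm10. Per the labels' protocols, polyA RNA was sequenced with a kit that does not mark strand. The strand setting of counting is not given in the sources used here, and overlapping genes can share reads. The authors deposited a count and an FPKM value per gene and library. In every library the size used for FPKM, in 1e+06 counts, was 16.51 times the size factor.

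Counts were tested with edgeR 4.0.16 (R 4.3.3, TMM scaling, quasi-likelihood F test) in 1 fit of the 5 groups. Of 54532 genes, 12376 reached an FPKM of 1 in 4 or more libraries and were tested, and p-values were Benjamini-Hochberg adjusted over all of them, with calls at an adjusted p under 0.05. The SE of a log2 fold change came from the change and its F value. The fit was tested on simulated counts, drawn with the same spread for every gene and group and without a deviant library. That run does not bear on how single libraries weighed on the etomoxir results at 24 h. Alternatives were DESeq2 1.42.0, its size factors, other filters, limma 3.58.1 on log2(FPKM + 1), log2(FPKM + 0.1) and log2(TPM + 1), a replicate block, fits of only the groups compared, and each library left out. Leaving out 4 libraries that held muscle or pancreas transcripts was added after seeing the data.

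Total counts of 14903757 to 18446372 set the precision for genes near 0. Some genes were given library by library in sham and the etomoxir groups, and by lowest, median and highest value in PHx24 and PHx48. Chosen for this were the member of each role with the highest mean FPKM, plus Ccnb1, Cdk1, Aurkb, Mki67 and Anln. Per comparison, the genes with the largest and smallest change and the lowest adjusted p were also named. Other genes were named after their values were seen. The members and lists were chosen with earlier results of these data known.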

Additional observations from a re-analysis of the deposited data

Results flagged for a closer look

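In groups of 4 to 10 libraries, the highest or lowest library was checked for a gap from the others that is large for the range of its group. Of 115 checks 23 met the limit, where chance gives about 1 in 20. Checks on genes that move together are not independent.

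PHx24_ETO 1 stood above the other 3 libraries of its group for 15 genes. Its FPKM was 2.81 for Ccnb2, 1.91 for Ccnb1 and 6.06 for Cdk1, the genes of entry into mitosis. It was 4.61 for the kinase gene Plk1, 8.02 for Pbk and 3.01 for the checkpoint gene Mad2l1. It was 17.1 for Spc24 of the kinetochore, 3.29 for Tpx2 of the spindle, 4.54 for Mki67 and 5.16 for the condensin gene Ncapd2. It was 4.78 for Aurkb, 6.37 for Incenp, 5.64 for Ube2c, 2.06 for Kif20a and 0.793 for Anln.

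Sham 4 stood above the other sham libraries in the mean log2(FPKM + 1) of the 51 genes (0.812). It did so also in the FPKM of Cdc20 (4.25), Ccnb2 (1.66), Cdk1 (1.08), Tpx2 (0.709) and Ccnb1 (0.549). Kif20a stood apart in PHx48 5 (25.5 FPKM) and Mki67 in PHx48_ETO 3 (17.4 FPKM).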

How the results depend on the processing

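With 4 to 7 libraries a group, single libraries weighed on the etomoxir results at 24 h. The count of members called lower in PHx24_ETO against PHx24 (10) was 25 with DESeq2, and with limma 28 on log2(FPKM + 1), 43 on log2(FPKM + 0.1) and 37 on log2(TPM + 1), while it was 5 with no filter and 0 with only the groups compared, and leaving out 1 library gave 0 to 50. The count higher in PHx24_ETO against sham (26) was 3, 9 and 9 with limma on these scales, 6 with only the groups compared and 14 without the 4 libraries that held muscle or pancreas transcripts. Leaving out 1 library gave 5 to 34 higher and 1 to 4 lower, and the log2 fold change of Spc24 ranged from -1.07, reversed without PHx24_ETO 1 (edgeR adjusted p = 0.0216), to 0.63. The count higher in PHx48_ETO against PHx24_ETO (48) was 22 with only the groups compared and 42 to 50 with 1 library left out. In PHx48 against PHx24 (35) it was 31 to 40. The call of Pttg1 lower than sham went to 0 in PHx48 with no filter, on log2(TPM + 1) and without the 4 libraries, and in PHx48_ETO with these 3, with filterByExpr and with only the groups compared. Leaving out 1 library gave 0 to 1 for both. The test between the times gave 1 with DESeq2 and 0 to 40 with 1 library left out. The causes were not tested. Of 1980 values of 22 genes under the other settings, 1846 kept their side of the threshold, 68 passed it anew and 66 lost it. Values not called in either fit were counted as kept even where their direction changed. Spc24 in PHx24_ETO against sham was such a case, with 0.28 in the main fit and -0.22 with limma on log2(FPKM + 1). With 1 library left out the numbers were 2270, 50 and 55 of 2376, and 1 was reversed with a call.

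Same-numbered libraries did not deviate together in every pair of any 2 groups, so the numbers were taken as names of libraries only. Correlations were 0.0257 to 0.655 between sham and PHx24, with 4 of 5 pairs over 0.1. They were -0.0134 to 0.411 between PHx24 and PHx24_ETO, and -0.126 to 0.247 between PHx48 and PHx48_ETO. The highest, 0.655, was between sham 1 and PHx24 1, which held 3907 and 1516 FPKM of skeletal muscle markers. The part of muscle transcripts in that value was not tested. Whether some same-numbered libraries share a batch was not tested further. With the replicate number as a block, 2 members were called lower in PHx24_ETO against PHx24 and 17 higher in PHx24_ETO against sham.

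TPM scaling moved the median log2 fold change of all genes to 0.19 for PHx24, 0.32 for PHx48, 0.21 for PHx24_ETO and 0.27 for PHx48_ETO against sham, and to 0.13 for PHx48 against PHx24. With limma on log2(TPM + 1) the share of calls that were higher was 80.9%, 89.7%, 76.7%, 86.7% and 86.5%. It was 54.7%, 53.4%, 55.8%, 54.8% and 53.4% in the edgeR fit, and 52.5%, 51.9%, 53.4%, 52.6% and 56.8% with limma on log2(FPKM + 1). For PHx24_ETO against PHx24 it was 27.1% on TPM, 54.3% with edgeR and 48.4% with limma on log2(FPKM + 1). For PHx48_ETO against PHx24_ETO it was 73.4%, 48.6% and 49.5% in the same order.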
